A study of Mus musculus with 30 samples.

Results

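Mitochondria in a cell join and divide continuously. Damaged ones are removed by selective autophagy (mitophagy), and their own small genome, mtDNA, is packaged and transcribed by proteins that the nucleus encodes. In macrophages these processes are known to accompany changes of metabolism during activation. The genes described here are 10 nuclear genes of these processes, picked by symbol and not by a measured value: Mfn1, Mfn2 and Opa1 for fusion, Dnm1l, Fis1 and Mff for fission, Pink1 and Sqstm1 for mitophagy, and Tfam and Polrmt for the packaging and transcription of mtDNA. The choice was made with earlier results of these data known. Each gene was found by its Ensembl identifier, and together they were 10 of the 43629 gene rows counted in every library. All 10 passed the filter on low counts in both experiments, with 165 to 39810 reads per gene and library.

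Messenger RNA was measured in macrophages derived from C57BL/6 bone marrow, cultured in CSF-1 (20 ng/mL) and used on day 7, in 30 libraries that form 10 groups of 3. In the first experiment, wild type cells received IL-4 at 20 ng/mL together with prostaglandin E2 (PGE2) at 10 µM, IL-4 together with valinomycin at 10 nM, IL-4 alone, or no stimulus. In the second, cells that carried an Etv1 shRNA or a control shRNA received IL-4 with PGE2, IL-4 alone or no stimulus at the same doses. IL-4 is the cytokine of alternative macrophage activation. PGE2 acts through receptors that raise cyclic AMP. Valinomycin carries potassium across membranes and so lowers the potential across the inner mitochondrial membrane. Etv1 is a transcription factor of the ETS family. The study asks how that potential bears on nuclear genes under PGE2. The labels name 1 Etv1 and 1 control hairpin group, so an effect of the Etv1 hairpin on other targets cannot be told apart from an effect of Etv1. Nothing in the labels says that the 3 libraries of a group are from different mice or cultures, and p-values therefore measure the spread between these samples alone, which may be technical.

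Library totals were 10514496 to 13414293 counts in wild type and 6924973 to 30473040 in shRNA cells. Levels are given in CPM, counts scaled to the library size, within an experiment. Etv1 itself averaged 8.89 ± 1.08, 5.33 ± 0.58 and 3.44 ± 1.23 CPM with the Etv1 shRNA under IL-4 with PGE2, IL-4 and no stimulus, against 28.0 ± 5.73, 13.9 ± 2.07 and 10.6 ± 0.289 CPM with the control shRNA (SD, n = 3). The summed level of 8 macrophage markers moved with the groups. It was 9782 to 10386, 9466 to 10065 and 8902 to 9483 CPM with the Etv1 shRNA in those conditions, against 19329 to 21465, 15895 to 17064 and 18311 to 20290 CPM with the control shRNA. In wild type cells it was 17017 to 18869 CPM under IL-4 with PGE2, 14362 to 15158 under IL-4 with valinomycin, 15695 to 17072 under IL-4 and 18467 to 19083 without stimulus. The 8 neutrophil markers summed to 212 to 342 CPM in wild type and at most 2.46 CPM in shRNA cells, where Ly6g was at 0, and markers of 5 other cell types each summed to at most 8.21 CPM. The part of these differences in the results below was not tested.

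Per kilobase of exon, Sqstm1 was by far the most abundant of the 10 transcripts. In unstimulated wild type cells Sqstm1 stood at 162 ± 2.43 CPM per kb, followed by Fis1 at 38.3 ± 1.66, Pink1 at 29.9 ± 1.29, Dnm1l at 17.0 ± 0.0894, Mfn2 at 14.1 ± 0.369, Opa1 at 11.6 ± 0.380 and Mff at 8.59 ± 0.196 CPM per kb (SD, n = 3). Mfn1 at 5.39 ± 0.326, Tfam at 5.30 ± 0.207 and Polrmt at 5.10 ± 0.0711 CPM per kb came last, and these did not differ beyond their spread. In unstimulated control shRNA cells the order was the same except that Dnm1l stood above Pink1 and Polrmt above Mfn1 and Tfam.

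In wild type cells, PGE2 on top of IL-4 raised Dnm1l and Pink1 and lowered Polrmt, valinomycin on top of IL-4 raised Sqstm1 and Mfn1 and lowered Fis1, and IL-4 alone raised Mfn2 and Mff and lowered Sqstm1. Changes were small: apart from Sqstm1, no called change in wild type cells exceeded 0.32 in size on the log2 scale. Log2 fold changes and differences are given ± SE. Counts of called members were compared with the share of all tested genes called in the same direction, at a Benjamini-Hochberg adjusted p under 0.05 in edgeR. For PGE2 against IL-4 alone, 2 of 10 rose and 1 fell, where 29.9% of the 12824 genes tested were called higher and 29.5% lower. For valinomycin against IL-4 alone, 2 rose and 1 fell, against 19.4% and 18.9% of all genes. For IL-4 against no stimulus, 2 rose and 1 fell, against 24% and 22.4%. Between the PGE2 and valinomycin groups, 3 members were higher and 3 lower with PGE2, against 31.7% and 31.5%. The median absolute log2 fold change of the 10 genes was 0.13 for PGE2, where that of all genes was 0.32, and 0.07 for valinomycin, where that of all genes was 0.20. All tested genes include genes with fewer reads than any member. Comparisons of sizes and ranges with all genes, here and below, are thus not matched for level. Because these are bulk samples, fewer cells of a type and less RNA per cell cannot be told apart.

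**Figure D1:**
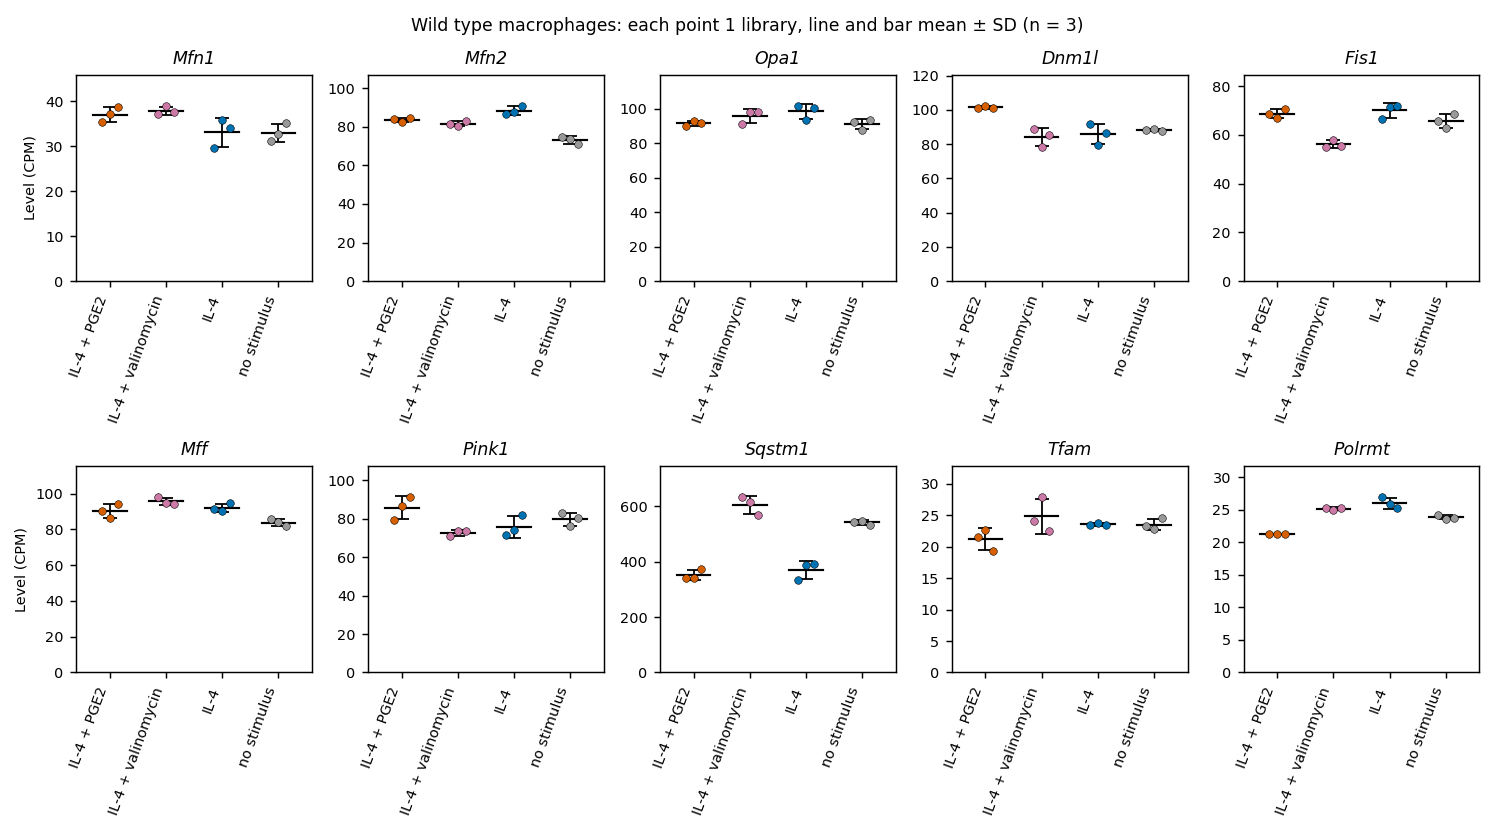
Levels in CPM (vertical axes, from 0) of the 10 genes in the 12 wild type libraries, by stimulus; points are libraries, lines and bars the mean ± SD of 3. Sqstm1 stands near 607 CPM with valinomycin against 371 CPM under IL-4 alone, while Opa1 and Mff stay within narrow bands.

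In shRNA cells, PGE2 on top of IL-4 raised Fis1 and Pink1 and lowered Tfam and Polrmt with either hairpin, and with the control shRNA it also lowered Mfn2 and Opa1. That is 2 higher and 2 lower of 10 with the Etv1 shRNA, where 24.6% and 22.8% of 12382 genes were called, and 2 higher and 4 lower with the control shRNA, against 29.3% and 30.1%. IL-4 raised Mfn2 and Mff and lowered Sqstm1 with either hairpin. Its background was 10.9% higher and 7.16% lower with the Etv1 shRNA, and 17.2% and 17.1% with the control shRNA.

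The Etv1 shRNA, compared with the control shRNA, lowered Pink1 and Sqstm1 and raised Fis1 in each of the 3 conditions. Under IL-4 with PGE2, 2 members were higher and 2 lower, against 27.6% and 26.7% of all genes. Under IL-4 alone, 2 were higher and 3 lower, against 25.4% and 25.6%. Without stimulus, 3 were higher and 3 lower, against 24.9% and 26.8%. These counts lie near the shares of all genes, and the median absolute log2 fold change of the 10 genes was 0.14, 0.12 and 0.16 in the 3 conditions, where that of all genes was 0.31, 0.29 and 0.29.

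**Figure D2:**
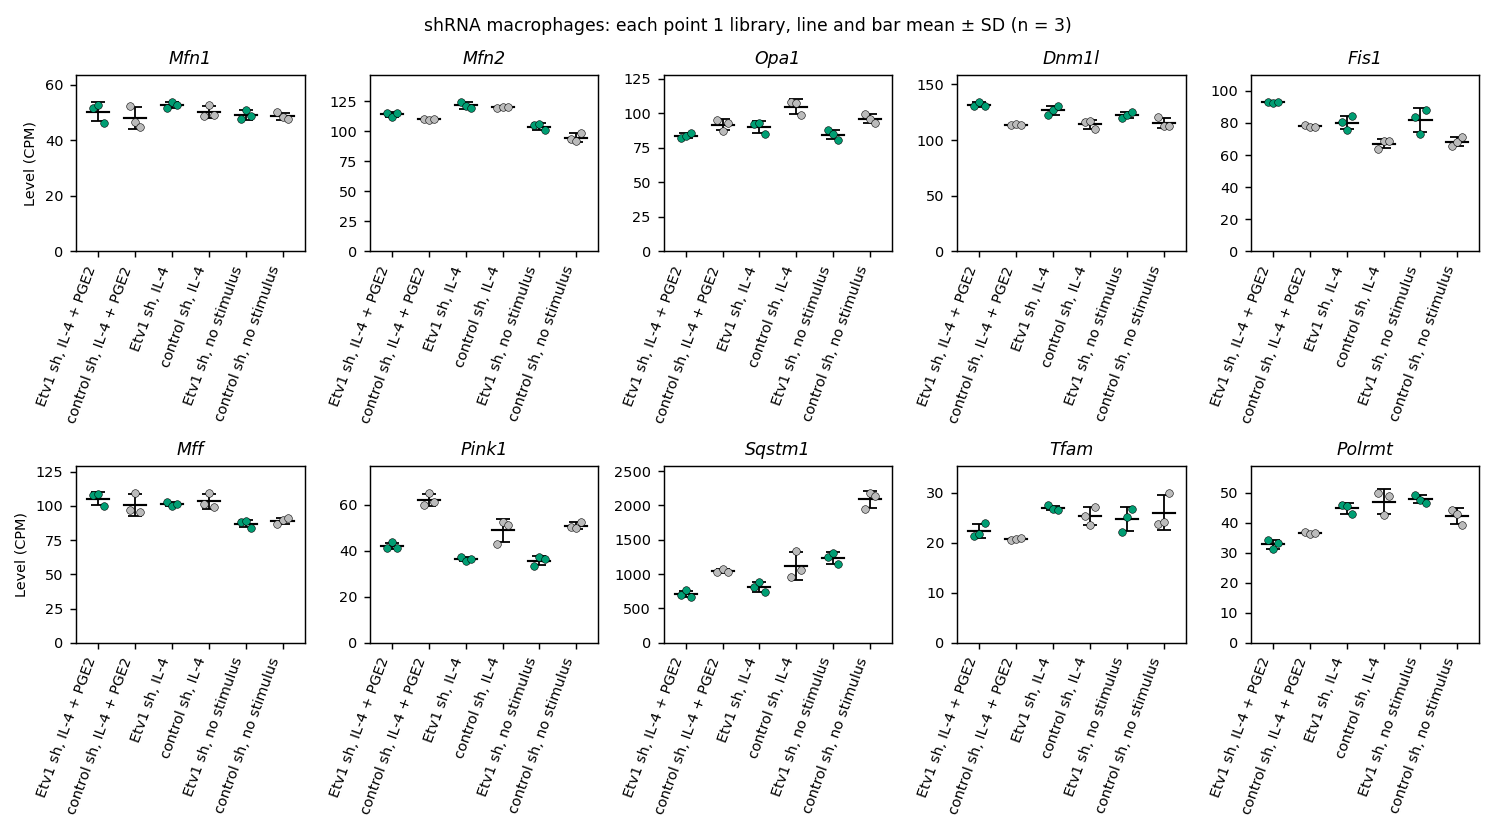
Levels in CPM (vertical axes, from 0) of the 10 genes in the 18 shRNA libraries, Etv1 shRNA (green) beside control shRNA (grey) in each condition; points are libraries, lines and bars the mean ± SD of 3. The green points of Pink1 and Sqstm1 lie below the grey ones in each condition, and those of Fis1 above.

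Promoter sequence is shown for the members that moved with the Etv1 shRNA in at least 2 conditions at the same sign (Pink1, Sqstm1, Opa1, Dnm1l, Fis1) or that fell together under PGE2 (Tfam, Polrmt), since Etv1 binds ETS motifs and PGE2 signals through cyclic AMP. The windows, from RefSeq on GRCm38.p6, run from 250 bases before to 50 bases after an annotated start, and all 10 members had at least 1. More starts were listed for Dnm1l, Fis1 and Mff (2 each) and Mfn2 (3). For these, only the window nearest the 5' end of the gene was searched. Both strands were searched for an ETS core (CCGGAAG), a cyclic AMP response element (TGACGTCA) and a form of the element of nuclear respiratory factor 1 (GCGCATGCG). Capitals mark matches on either strand.
Pink1 (chr4:138326247-138326546, minus strand): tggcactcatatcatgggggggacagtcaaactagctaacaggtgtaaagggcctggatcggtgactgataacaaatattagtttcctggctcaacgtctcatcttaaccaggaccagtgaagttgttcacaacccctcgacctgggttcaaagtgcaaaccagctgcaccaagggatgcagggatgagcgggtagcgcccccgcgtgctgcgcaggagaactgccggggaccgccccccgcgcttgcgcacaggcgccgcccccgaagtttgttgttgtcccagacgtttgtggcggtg
Sqstm1 (chr11:50210771-50211070, minus strand): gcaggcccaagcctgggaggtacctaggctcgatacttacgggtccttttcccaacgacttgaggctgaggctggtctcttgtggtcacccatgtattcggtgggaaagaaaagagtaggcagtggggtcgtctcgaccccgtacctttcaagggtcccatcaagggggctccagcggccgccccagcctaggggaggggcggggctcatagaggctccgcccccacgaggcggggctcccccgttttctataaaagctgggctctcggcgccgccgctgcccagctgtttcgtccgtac
Opa1 (chr16:29579084-29579383, plus strand): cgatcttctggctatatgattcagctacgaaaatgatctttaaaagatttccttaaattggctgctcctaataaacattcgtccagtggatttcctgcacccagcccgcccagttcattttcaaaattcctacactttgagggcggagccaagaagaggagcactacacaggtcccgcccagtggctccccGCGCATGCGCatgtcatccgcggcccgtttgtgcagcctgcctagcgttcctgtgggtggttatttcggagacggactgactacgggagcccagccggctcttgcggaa
Dnm1l (chr16:16358982-16359281, minus strand): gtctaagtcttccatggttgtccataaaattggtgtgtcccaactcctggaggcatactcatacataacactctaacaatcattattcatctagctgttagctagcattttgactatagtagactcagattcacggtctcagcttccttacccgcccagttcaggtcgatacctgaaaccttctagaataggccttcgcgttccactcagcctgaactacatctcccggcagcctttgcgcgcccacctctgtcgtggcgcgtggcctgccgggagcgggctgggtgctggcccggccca
Fis1 (chr5:136953025-136953324, plus strand): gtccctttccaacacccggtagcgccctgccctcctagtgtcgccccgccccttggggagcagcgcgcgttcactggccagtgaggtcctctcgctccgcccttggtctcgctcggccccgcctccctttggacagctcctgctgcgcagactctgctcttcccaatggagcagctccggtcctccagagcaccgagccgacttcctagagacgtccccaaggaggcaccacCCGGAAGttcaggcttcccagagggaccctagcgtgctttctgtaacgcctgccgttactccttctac
Tfam (chr10:71237995-71238294, minus strand): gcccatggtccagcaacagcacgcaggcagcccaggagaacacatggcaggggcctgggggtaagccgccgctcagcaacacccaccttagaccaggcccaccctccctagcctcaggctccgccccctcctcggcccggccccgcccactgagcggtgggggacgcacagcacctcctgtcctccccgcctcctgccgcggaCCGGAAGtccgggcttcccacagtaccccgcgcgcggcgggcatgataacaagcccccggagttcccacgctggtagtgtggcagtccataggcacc
Polrmt (chr10:79746532-79746831, minus strand): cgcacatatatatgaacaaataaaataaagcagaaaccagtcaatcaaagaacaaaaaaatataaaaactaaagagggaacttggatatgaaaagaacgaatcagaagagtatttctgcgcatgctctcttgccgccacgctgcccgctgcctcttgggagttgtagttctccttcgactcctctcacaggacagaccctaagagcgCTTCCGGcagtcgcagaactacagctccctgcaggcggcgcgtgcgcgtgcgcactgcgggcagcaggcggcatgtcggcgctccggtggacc
An ETS core was found in 4 of 10 windows, where 8.86% of all 32851 promoter windows of the same length hold one. That share covers all windows, of genes tested here or not, and every listed start of a gene. The core lay 18 bases before the start of Fis1, 47 before that of Tfam and 44 before that of Mfn1 on the gene's strand, and 43 before that of Polrmt on the other strand. Of the members shown for the hairpin, Fis1 alone holds one in the window searched, and Pink1, Sqstm1, Opa1 and Dnm1l hold none there. The other listed start of Dnm1l was not searched. Mfn1 and Tfam hold one but passed in no comparison between hairpins. The letters GCGCATGCG were found in Opa1 alone, as overlapping matches on both strands 59 and 58 bases before the start. Of all windows, 1.75% hold them. The cyclic AMP response element was found in 0 of 10 windows and in 1.79% of all windows. A match describes these letters only, and other forms of these elements were not searched. A window without a match may thus hold another form. No binding was measured.

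Among the fusion genes, Mfn2 moved with IL-4 in each cell background. Mfn1 (chr3:32529465-32579239, plus strand) and Mfn2 (chr4:147873599-147904704, minus strand) encode mitofusins, the GTPases that tether and fuse outer mitochondrial membranes. Mfn2 had 86.6, 87.8 and 90.8 CPM under IL-4 in wild type cells, against 74.6, 73.9 and 71.0 CPM without stimulus. The groups did not overlap, and the log2 fold change was 0.27 ± 0.05 (SE, adjusted p = 4.74e-05). It had 125, 121 and 119 CPM under IL-4 with the Etv1 shRNA, against 105, 106 and 101 CPM without stimulus, a log2 fold change of 0.23 ± 0.04 (SE, adjusted p = 0.000804). With the control shRNA it had 119, 120.2 and 120.5 CPM under IL-4, against 93.7, 91.6 and 98.7 CPM without stimulus, a log2 fold change of 0.34 ± 0.04 (SE, adjusted p = 3.53e-06). Every IL-4 library thus lay above every unstimulated one of its own background. PGE2 changed Mfn2 by less: 110.4, 109.7 and 110.3 CPM with PGE2 in control shRNA cells gave -0.12 ± 0.04 (SE, adjusted p = 0.0219) against IL-4, a call that was lost without any 1 of the PGE2 libraries or without control shRNA IL-4 replicate 3 (adjusted p up to 0.057), with DESeq2, and without the filter on low counts (adjusted p = 0.0859). It did not pass in the other backgrounds. Without stimulus Mfn2 was also higher with the Etv1 than with the control shRNA, by 0.13 ± 0.04 (SE, adjusted p = 0.0156), a call lost without Etv1 shRNA replicate 2 or control shRNA replicate 1 or 2 (adjusted p up to 0.0659), and without the filter on low counts (adjusted p = 0.164).

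Mfn1 was among the steadiest genes in shRNA cells. The range of its group means over the 6 shRNA groups was 0.14 on the log2 scale, and 0.638% of tested genes had a smaller one. Wild type cells had 37.1, 38.9 and 37.5 CPM of Mfn1 with valinomycin, against 29.6, 35.8 and 34.0 CPM under IL-4 alone, with a log2 fold change of 0.19 ± 0.07 (SE, adjusted p = 0.0424). The valinomycin libraries lay above the IL-4 libraries. The call was lost in 6 of 12 fits that left out 1 library, namely unstimulated 2, IL-4 1 or 3, PGE2 2 and valinomycin 2 or 3, with adjusted p up to 0.219, and with DESeq2. With PGE2 it had 35.4, 37.1 and 38.7 CPM, and the change against IL-4 was 0.16 ± 0.07 (SE, adjusted p = 0.0696), which passed without IL-4 replicate 2 (0.21, adjusted p = 0.025) and with the replicate block.

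Opa1 (chr16:29579334-29654884, plus strand), the GTPase that fuses inner membranes and shapes cristae, differed between the hairpins. Under IL-4 it had 92.3, 93.2 and 85.0 CPM with the Etv1 shRNA, against 108, 108 and 98.4 CPM with the control shRNA, a log2 difference of -0.22 ± 0.06 (SE, adjusted p = 0.00268). Without stimulus it had 87.5, 85.3 and 81.0 CPM with the Etv1 shRNA, against 99.4, 95.5 and 93.3 CPM with the control shRNA, a difference of -0.19 ± 0.06 (SE, adjusted p = 0.00805). Groups did not overlap in either condition. Under IL-4 with PGE2 the values were 82.0, 83.6 and 86.1 CPM with the Etv1 shRNA, against 95.0, 87.1 and 93.0 CPM with the control shRNA, which also did not overlap, and the difference was -0.13 ± 0.06 (SE, adjusted p = 0.0549). It passed without Etv1 shRNA IL-4 replicate 3, control shRNA IL-4 replicate 1 or 3 or control shRNA PGE2 replicate 2, with adjusted p as low as 0.0251, and with DESeq2 size factors or the replicate block. PGE2 lowered Opa1 in control shRNA cells (-0.19 ± 0.05, adjusted p = 0.00526). In wild type cells it had 90.0, 93.2 and 91.7 CPM under PGE2, against 102, 93.4 and 101 CPM under IL-4, and did not pass (-0.11 ± 0.05, adjusted p = 0.0785) except without IL-4 replicate 2 (-0.14, adjusted p = 0.0265). IL-4 against no stimulus gave 0.11 ± 0.05 (adjusted p = 0.0755) in wild type and 0.13 ± 0.05 (adjusted p = 0.0855) in control shRNA cells. These passed only without wild type IL-4 replicate 2 (adjusted p = 0.0273) or control shRNA IL-4 replicate 3 (adjusted p = 0.0373). The change with the Etv1 shRNA was 0.09 ± 0.06 (adjusted p = 0.292). The 4 wild type group means of Opa1 spanned 0.11 on the log2 scale, and 1.46% of tested genes had a smaller range.

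Of the fission genes, Dnm1l and Fis1 responded to PGE2 differently in wild type and in control shRNA cells. Dnm1l (chr16:16312230-16358959, minus strand) encodes Drp1, the dynamin-like GTPase that constricts mitochondria once receptors bring it to their surface. In wild type cells it had 101, 102 and 101 CPM under IL-4 with PGE2, against 91.6, 79.6 and 86.8 CPM under IL-4. The PGE2 libraries were tightly grouped above the IL-4 libraries, and the log2 fold change was 0.24 ± 0.06 (SE, adjusted p = 0.000654). Valinomycin left it at 88.7, 78.3 and 85.2 CPM, so it was higher with PGE2 than with valinomycin by 0.27 ± 0.06 (SE, adjusted p = 0.000165). In control shRNA cells PGE2 gave 114, 115 and 113 CPM, against 116, 117 and 109.8 CPM under IL-4, and the groups overlapped (-0.01 ± 0.05, adjusted p = 0.929). The PGE2 effect was larger in wild type than in control shRNA cells by 0.26 ± 0.07 (SE, adjusted p = 0.00808), in a fit of all 30 libraries in which 10.5% of 13358 genes were called higher and 8.52% lower. That call was lost without control shRNA IL-4 or PGE2 replicate 1 or wild type IL-4 replicate 2 (adjusted p up to 0.0794), and without the filter on low counts (adjusted p = 0.316). Dnm1l was higher with the Etv1 than with the control shRNA under PGE2, where the Etv1 libraries had 130.4, 135 and 131 CPM, by 0.21 ± 0.05 (SE, adjusted p = 0.000772). Under IL-4 the Etv1 libraries had 122, 127 and 131 CPM, and the difference of 0.15 ± 0.05 (SE, adjusted p = 0.0131) was lost without the third Etv1 or the third control library (adjusted p up to 0.0717), and without the filter on low counts (adjusted p = 0.15).

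Fis1 (chr5:136953275-136966234, plus strand) encodes a small outer membrane protein, first known from yeast as an adaptor for fission. Valinomycin lowered it in wild type cells, to 55.0, 58.0 and 55.5 CPM, against 66.6, 71.7 and 71.9 CPM under IL-4 alone. Groups were well apart, and the log2 fold change was -0.32 ± 0.05 (SE, adjusted p = 6.08e-05). With PGE2 it had 68.7, 66.9 and 70.5 CPM in wild type cells, which overlapped the IL-4 values (-0.03 ± 0.05, adjusted p = 0.663) and lay above valinomycin by 0.29 ± 0.06 (SE, adjusted p = 7.08e-05). In shRNA cells PGE2 raised it. With the Etv1 shRNA Fis1 had 92.8, 92.3 and 93.3 CPM under IL-4 with PGE2, against 80.6, 75.8 and 84.3 CPM under IL-4 (0.21 ± 0.06, adjusted p = 0.00822), a call lost without Etv1 shRNA IL-4 replicate 2 (adjusted p = 0.0529). With the control shRNA it had 79.0, 77.6 and 77.3 CPM under IL-4 with PGE2, against 64.1, 68.7 and 68.9 CPM under IL-4 (0.22 ± 0.06, adjusted p = 0.00587). In neither background did the PGE2 and IL-4 libraries overlap. The PGE2 effect in wild type minus that in control shRNA cells was -0.23 ± 0.08 (SE, adjusted p = 0.043), a call lost without any 1 of 5 libraries (control shRNA PGE2 replicate 3, wild type IL-4 replicate 2 or 3, wild type PGE2 replicate 1 or 2), with adjusted p up to 0.097. The Etv1 shRNA raised Fis1 above the control shRNA by 0.25 ± 0.06 (SE, adjusted p = 0.00178) under PGE2, 0.26 ± 0.06 (SE, adjusted p = 0.00198) under IL-4 and 0.26 ± 0.06 (SE, adjusted p = 0.0016) without stimulus, where it had 83.9, 73.2 and 87.8 CPM with the Etv1 shRNA, against 65.5, 68.0 and 71.2 CPM with the control shRNA. In each condition the lowest Etv1 library lay above the highest control library.

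Mff (chr1:82724890-82752394, plus strand) encodes an outer membrane receptor for Drp1. IL-4 raised it slightly in each background. Mff had 91.6, 90.3 and 94.7 CPM under IL-4 in wild type cells, against 85.7, 84.0 and 81.8 CPM without stimulus, a log2 fold change of 0.14 ± 0.05 (SE, adjusted p = 0.0239) with groups that did not overlap. That call was lost without unstimulated replicate 2 or 3, IL-4 replicate 3 or valinomycin replicate 2 (adjusted p up to 0.0947), with DESeq2, and without the filter on low counts (adjusted p = 0.12). With the Etv1 shRNA Mff had 103, 100.2 and 101 CPM under IL-4, against 88.2, 88.7 and 83.9 CPM without stimulus (0.22 ± 0.06, adjusted p = 0.00951), a call lost without Etv1 shRNA unstimulated replicate 3 (adjusted p = 0.0558). With the control shRNA it had 102, 109.6 and 99.1 CPM under IL-4, against 86.8, 89.7 and 90.9 CPM without stimulus (0.22 ± 0.06, adjusted p = 0.00579). Groups did not overlap there either. PGE2 and valinomycin against IL-4, and the Etv1 against the control shRNA, gave log2 values of at most 0.07 in size for Mff, with adjusted p from 0.324 to 0.698 in edgeR.

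**Figure D3:**
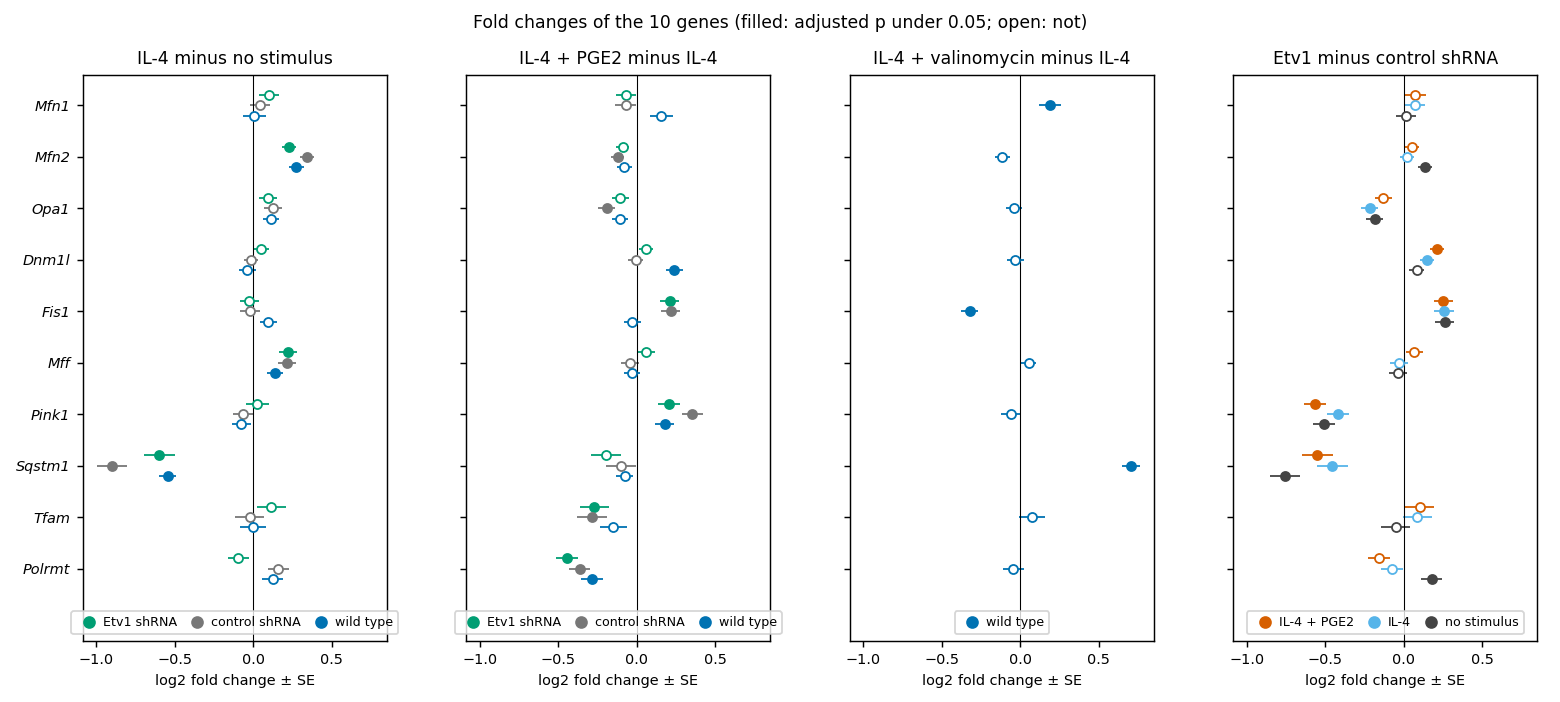
Log2 fold changes (horizontal axis) with SE bars of the 10 genes for IL-4, PGE2, valinomycin and the Etv1 shRNA, 3 libraries a group; filled points have an adjusted p under 0.05. Sqstm1 reaches 0.71 with valinomycin and -0.90 with IL-4 in control shRNA cells, and Pink1 is at -0.42 to -0.57 for the Etv1 shRNA.

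Pink1 (chr4:138313409-138326307, minus strand) encodes the kinase that collects on mitochondria of low membrane potential and activates Parkin. Its transcript was lower with the Etv1 shRNA in each condition and higher under PGE2 in each background. Under IL-4 with PGE2 it had 41.2, 43.7 and 41.2 CPM with the Etv1 shRNA, against 60.0, 65.2 and 61.3 CPM with the control shRNA (-0.57 ± 0.07, adjusted p = 9.92e-07). Under IL-4 it had 37.2, 35.4 and 36.6 CPM with the Etv1 shRNA, against 43.0, 52.4 and 51.1 CPM with the control shRNA (-0.42 ± 0.07, adjusted p = 6.4e-05). Without stimulus it had 33.4, 37.2 and 36.4 CPM with the Etv1 shRNA, against 50.2, 49.7 and 52.5 CPM with the control shRNA (-0.51 ± 0.07, adjusted p = 6e-06). No Etv1 library reached any control library of its condition. The macrophage marker sums given above were also lower in these Etv1 libraries. PGE2 raised Pink1 over IL-4 by 0.21 ± 0.07 (SE, adjusted p = 0.0221) with the Etv1 shRNA, a call lost without Etv1 shRNA IL-4 or PGE2 replicate 2 (adjusted p up to 0.0848), and by 0.35 ± 0.07 (SE, adjusted p = 0.000178) with the control shRNA. Wild type cells had 79.6, 86.7 and 91.1 CPM under IL-4 with PGE2, against 71.3, 73.9 and 82.0 CPM under IL-4. These groups overlapped, and the log2 fold change of 0.18 ± 0.06 (SE, adjusted p = 0.0142) was lost without IL-4 replicate 1 or 2 or PGE2 replicate 3 (adjusted p up to 0.0878). Valinomycin gave 70.8, 73.7 and 73.6 CPM, a change against IL-4 of -0.06 ± 0.06 (SE, adjusted p = 0.467), and Pink1 was higher with PGE2 than with valinomycin by 0.24 ± 0.06 (SE, adjusted p = 0.00152).

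Sqstm1 (chr11:50199366-50210827, minus strand) encodes p62, the receptor that ties ubiquitin-marked cargo to the autophagosome, and it had the widest range of the 10 genes. Over the 4 wild type groups its means spanned 0.78 on the log2 scale, wider than 67.6% of tested genes, and over the 6 shRNA groups 1.55, wider than 78.8%. Wild type cells had 633, 617 and 570.3 CPM under IL-4 with valinomycin and 341, 342 and 373 CPM under IL-4 with PGE2, against 335, 388 and 392 CPM under IL-4. The valinomycin libraries stood far above the IL-4 libraries, whereas PGE2 and IL-4 overlapped. Valinomycin raised it by 0.71 ± 0.06 (SE, adjusted p = 9.51e-10), PGE2 gave -0.08 ± 0.06 (SE, adjusted p = 0.239), which passed without IL-4 replicate 1 (-0.15, adjusted p = 0.0168), and PGE2 against valinomycin was -0.79 ± 0.06 (SE, adjusted p = 2.38e-11). Unstimulated wild type cells had 545, 549 and 533 CPM, and IL-4 lowered it without overlap (-0.55 ± 0.06, adjusted p = 2.07e-08).

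In shRNA cells Sqstm1 fell with IL-4 and with the Etv1 hairpin. With the Etv1 shRNA it had 819.8, 885 and 744 CPM under IL-4, against 1244, 1313 and 1150.1 CPM without stimulus (-0.60 ± 0.10, adjusted p = 0.000176). With the control shRNA it had 958, 1341 and 1059 CPM under IL-4, against 1947, 2184 and 2135 CPM without stimulus (-0.90 ± 0.10, adjusted p = 5.83e-07). Groups were separate in both backgrounds, although control shRNA IL-4 replicate 2 lay well above the other 2. Under IL-4 with PGE2 it had 699, 766 and 672 CPM with the Etv1 shRNA, against 1026, 1073 and 1031 CPM with the control shRNA. The log2 difference between Etv1 and control shRNA was -0.55 ± 0.10 (SE, adjusted p = 9.95e-05) under PGE2, -0.46 ± 0.10 (SE, adjusted p = 0.00071) under IL-4 and -0.76 ± 0.10 (SE, adjusted p = 3.36e-06) without stimulus. Etv1 and control libraries did not overlap in any condition. PGE2 against IL-4 was -0.20 ± 0.10 (SE, adjusted p = 0.105) in Etv1 shRNA cells, and with the replicate number as a block, since the numbers pair these samples, -0.20 with an adjusted p of 0.0165. It also passed without control shRNA IL-4 replicate 2, which enters the shared estimate of spread (adjusted p = 0.0281). With only the compared groups in the fit it passed too (-0.20, adjusted p = 0.0279). In control shRNA cells it was -0.10 ± 0.10 (SE, adjusted p = 0.389). Mrnip, on the opposite strand, shares 580 exonic bases with Sqstm1, and the sources used here do not give whether reads were counted by strand. Mrnip had 3.72 ± 0.418 CPM with valinomycin, against 2.42 ± 0.0963 CPM under IL-4 in wild type cells (SD, n = 3), far below Sqstm1, and it passed the test in the same direction (0.62, adjusted p = 0.0198).

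Polrmt fell under PGE2 in each background, and Tfam in shRNA cells. Polrmt (chr10:79736123-79746581, minus strand) encodes the RNA polymerase of mitochondria. It had 21.3, 21.3 and 21.3 CPM in wild type cells under IL-4 with PGE2, against 26.9, 25.9 and 25.2 CPM under IL-4. The PGE2 values hardly varied and lay below all IL-4 values, with a log2 fold change of -0.29 ± 0.07 (SE, adjusted p = 0.00111). With the Etv1 shRNA Polrmt had 34.2, 31.2 and 33.1 CPM under IL-4 with PGE2, against 45.9, 45.7 and 42.8 CPM under IL-4 (-0.45 ± 0.07, adjusted p = 2.41e-05), and with the control shRNA 37.0, 36.2 and 36.7 CPM, against 50.0, 42.5 and 48.8 CPM (-0.36 ± 0.07, adjusted p = 0.000118). No groups overlapped. Valinomycin gave 25.4, 25.0 and 25.3 CPM, and did not pass against IL-4 (-0.04 ± 0.07, adjusted p = 0.645); PGE2 against valinomycin was -0.24 ± 0.07 (SE, adjusted p = 0.00426). Without stimulus it was higher with the Etv1 shRNA, at 49.4, 47.7 and 46.8 CPM, against 44.3, 43.0 and 39.2 CPM with the control shRNA (0.18 ± 0.07, adjusted p = 0.0303), a call lost without Etv1 shRNA replicate 1 or 2 or control shRNA replicate 3 (adjusted p up to 0.127), with DESeq2, and without the filter on low counts (adjusted p = 0.105). Under IL-4 with PGE2 the hairpins differed the other way, without overlap, but did not pass (-0.16 ± 0.07, adjusted p = 0.0624). That difference passed with DESeq2 size factors or the replicate block. It also passed without control shRNA unstimulated replicate 3 or IL-4 replicate 1 or 2 (adjusted p as low as 0.0388). IL-4 against no stimulus did not pass for Polrmt in any background. With the control shRNA it gave 0.16 ± 0.07 (adjusted p = 0.075), which passed without control shRNA IL-4 replicate 2 (0.22, adjusted p = 0.0124).

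Tfam (chr10:71225464-71238280, minus strand) encodes the protein that packages mtDNA and starts its transcription. Etv1 shRNA cells had 21.3, 21.6 and 24.0 CPM under IL-4 with PGE2, against 27.4, 26.7 and 26.6 CPM under IL-4 (-0.27 ± 0.09, adjusted p = 0.0219). With the control shRNA it had 20.5, 20.8 and 21.0 CPM under IL-4 with PGE2, against 25.3, 23.5 and 27.2 CPM under IL-4 (-0.29 ± 0.09, adjusted p = 0.0132). The groups were separate in both backgrounds. The first call was lost without Etv1 shRNA IL-4 replicate 1 or PGE2 replicate 1 or 2 (adjusted p up to 0.0844), and the other without control shRNA IL-4 replicate 3 (adjusted p = 0.0627). In wild type cells it had 21.6, 22.7 and 19.3 CPM under PGE2, against 23.5, 23.8 and 23.4 CPM under IL-4 (-0.15 ± 0.09, adjusted p = 0.137), and 24.2, 27.9 and 22.5 CPM with valinomycin. PGE2 against valinomycin was -0.22 ± 0.09 (SE, adjusted p = 0.0259), a call lost without PGE2 replicate 3 or valinomycin replicate 2 (adjusted p up to 0.15), and with DESeq2.

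Whether the Etv1 shRNA altered the response to a stimulus was tested as a difference of effects. No member passed for the PGE2 effect, Etv1 minus control shRNA, where 6.03% of genes were called higher and 5.58% lower. At an unadjusted p under 0.05 there were 0 of 10, and DESeq2 also called 0. The interval of the difference for Pink1 was -0.34 to 0.05 on the log2 scale and for Polrmt -0.27 to 0.11 (95%). For the IL-4 effect edgeR called 0 members, against 2.71% and 1.81% of genes, with 2 at an unadjusted p under 0.05 and 0 called by DESeq2. These were Sqstm1, whose drop under IL-4 was smaller with the Etv1 shRNA (0.30 ± 0.14, adjusted p = 0.279), and Polrmt (-0.25 ± 0.09, adjusted p = 0.157). With the replicate block the Sqstm1 difference was 0.31 with an adjusted p of 0.0416, and without control shRNA IL-4 replicate 2 it was 0.45 with an adjusted p of 0.0135. Without that library the Polrmt difference was -0.32 with an adjusted p of 0.0375.

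The same stimuli were also compared between wild type and control shRNA cells, which differ in transduction and in experiment. These cannot be told apart. For the IL-4 effect 0 members were called, where 4.01% of genes were called higher and 5.17% lower, with 1 at an unadjusted p under 0.05, Sqstm1 (0.34 ± 0.12, adjusted p = 0.0752), and 0 by DESeq2. The Sqstm1 difference was 0.48 without control shRNA IL-4 replicate 2 and 0.41 without wild type IL-4 replicate 1, with adjusted p of 0.00213 and 0.0282. It also passed without the filter on low counts (0.36, adjusted p = 0.00266) and with the replicate block (0.34, adjusted p = 0.0105). For the PGE2 effect 1 member was higher and 1 lower, Dnm1l and Fis1 as given above, and Mfn1 did not pass (0.24 ± 0.10, adjusted p = 0.0816) except without wild type IL-4 replicate 2 (adjusted p = 0.0468) or with the replicate block (adjusted p = 0.0456).

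Among other genes of the same processes, PGE2 lowered more fusion-related and mtDNA genes than it raised. It raised more genes of the mitophagy list than it lowered. The lists were chosen with earlier results of these data known, so the counts here and below are not independent of the data. Of 15 other fusion-related genes tested, 2 rose and 8 fell in wild type cells, and 2 rose and 6 fell with the Etv1 shRNA, against 1 and 10 with the control shRNA. The prohibitins of the inner membrane, Phb2 and Phb, fell by 1.0 and 0.82 on the log2 scale in wild type cells, while the inner membrane protease Yme1l1 rose by 0.34. The mitophagy list also holds genes of autophagy in general, among them Map1lc3b, Gabarap, Atg5, Atg7 and Tfeb. Of its 25 genes, 12 rose and 3 fell in wild type cells, and 14 and 1 with the Etv1 shRNA, against 15 and 4 with the control shRNA. The autophagy receptor Tax1bp1 rose by 0.97 and the mitophagy receptor Bcl2l13 by 0.85 in wild type cells, whereas Tfeb, a regulator of lysosomal genes, fell by 1.16. Of 26 mtDNA genes, 6 rose and 11 fell in wild type cells, and 3 and 11 with the Etv1 shRNA, against 3 and 12 with the control shRNA. The coactivators Ppargc1b and Pprc1 fell by 2.07 and 1.16 in wild type cells, and the mitochondrial thymidine kinase Tk2 rose by 0.41. For Tk2 the PGE2 effect differed between wild type and control shRNA cells, by 0.44 (wild type minus control shRNA, adjusted p = 0.000189 in edgeR). Of 13 fission genes, 5 rose and 3 fell in wild type cells. Of all genes, 29.9% were called higher and 29.5% lower under PGE2 in wild type cells, 24.6% and 22.8% with the Etv1 shRNA, and 29.3% and 30.1% with the control shRNA.

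IL-4 and valinomycin moved other members of these lists in wild type cells. IL-4 raised 7 of the 15 fusion-related genes and the other 8 did not pass. Of the 13 fission genes 2 rose and 6 fell, where 24% of all genes were called higher and 22.4% lower. In shRNA cells IL-4 raised 0 and lowered 2 of these fusion-related genes with the control shRNA, and 0 and 0 with the Etv1 shRNA. Of the fission genes, 2 rose and 4 fell with the control shRNA, and 0 and 2 with the Etv1 shRNA. Of all genes, 17.2% were called higher and 17.1% lower with the control shRNA, and 10.9% and 7.16% with the Etv1 shRNA. In wild type cells IL-4 lowered the actin nucleator Spire1 by 0.62 and raised Ppargc1b by 1.98. Nfe2l2, the transcription factor of the oxidative stress response, fell by 0.57 with IL-4. On top of IL-4 it fell by 0.54 with PGE2, where Sqstm1 did not pass, and rose by 0.56 with valinomycin. The PGE2 effect on Nfe2l2 differed between wild type and control shRNA cells, by -0.51 (wild type minus control shRNA, adjusted p = 0.00011 in edgeR). Of the 25 mitophagy genes, 9 rose and 5 fell with valinomycin, where 19.4% of all genes were called higher and 18.9% lower, and Tfeb rose by 0.54. Polg, the mtDNA polymerase, fell by 0.38 with valinomycin. With the Etv1 shRNA, 5 mitophagy genes were higher and 11 lower than with the control shRNA under PGE2, 5 and 9 under IL-4, and 4 and 10 without stimulus. Of all genes, 27.6% were higher and 26.7% lower under PGE2, 25.4% and 25.6% under IL-4, and 24.9% and 26.8% without stimulus. Under PGE2, Bcl2l13 was lower by 1.34 and Tax1bp1 by 0.79 with the Etv1 than with the control shRNA. Under IL-4, Atg7, an enzyme of autophagosome formation, was lower by 0.65 with the Etv1 shRNA. Immt, the core of the cristae junction complex, was higher with the Etv1 shRNA in each condition. The difference was 0.63 under PGE2, 0.57 under IL-4 and 0.41 without stimulus.

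**Figure D4:**
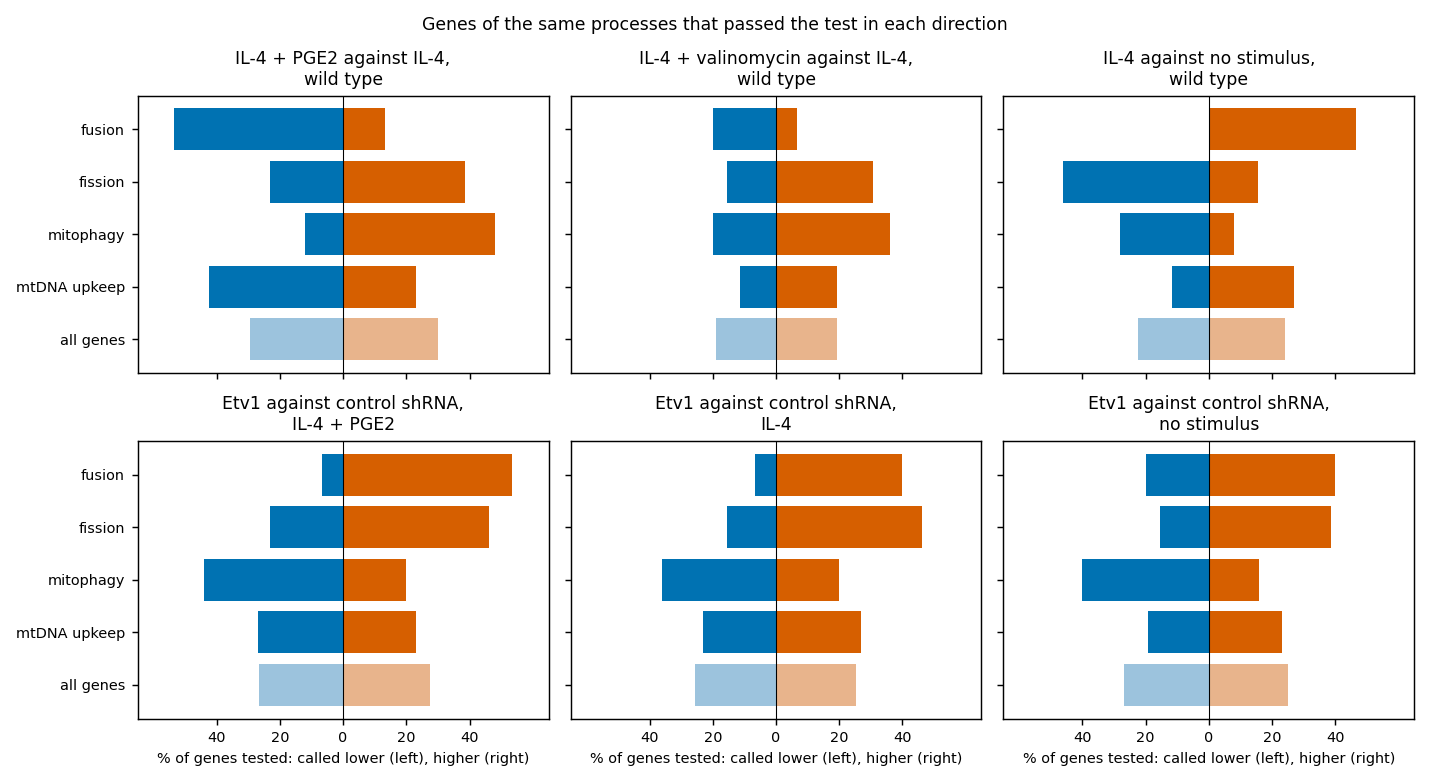
Share of the genes tested on each of 4 lists (15 fusion-related, 13 fission, 25 mitophagy, 26 mtDNA genes) and of all genes that passed the test, lower to the left and higher to the right, in percent. Genes of the mitophagy list, which also holds genes of autophagy in general, lean to higher under PGE2 and to lower with the Etv1 shRNA. The lists were chosen with earlier results of these data known.

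Across single libraries, the pair of members that moved most alike was Mfn2 and Mff, with a Pearson correlation of log2 CPM of 0.704 over the 12 wild type and 0.740 over the 18 shRNA libraries. The pair that moved most in opposite directions in both was Fis1 and Sqstm1, at -0.762 and -0.681. Over the same libraries, the gene most like Sqstm1 was Cxcr4, a chemokine receptor (0.980 in wild type, 0.940 in shRNA libraries), followed by Plekhm2 and Il17ra. The one most like Fis1 was Ndufa3, a subunit of respiratory complex I (0.868 and 0.891), and the one most like Polrmt was Srsf7, a splicing factor (0.959 and 0.952), followed by Pdcd11 and Nop56. These values describe libraries that share their groups and their depth.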

How the data were processed

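Per the labels' protocols, stranded poly(A) libraries were made from macrophages; the stimulation time and hairpin sequences were not given. The authors deposited raw counts of reads for each Ensembl gene, made with STAR and featureCounts on GRCm38 per the submitters' processing notes, which give no versions and also list DESeq2 and deepTools. The sources used here do not give whether reads were counted by strand, and counts of overlapping genes are uncertain: Mrnip overlaps Sqstm1, C430014B12Rik overlaps Mff, Gm49521 overlaps Dnm1l, and Mir7019 and Gm27646 overlap Pink1 on its own strand. Symbols, coordinates and exon lengths came from GENCODE M21 on GRCm38, which matched 97.33% of 43629 gene IDs; unmatched IDs held 0.19% of reads. Promoter sequences came from RefSeq.

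Each experiment was fitted with all its groups by edgeR 4.0.16 (robust quasi-likelihood test, TMM, filterByExpr) in R 4.3.3, on 12824 genes (wild type) and 12382 (shRNA), with p-values adjusted by Benjamini-Hochberg over all genes tested and calls at 0.05. SE is the absolute log2 fold change over the square root of F. Differences of effects between wild type and control shRNA came from a fit of all 30 libraries, on 13358 genes, added after the data were seen. CPM used TMM library sizes, log2 CPM for correlations a prior count of 2, and CPM per kb the merged exon length. The scripts were tested on simulated data. Alternatives were DESeq2 1.42.0, DESeq2 size factors, no filter on low counts, only the compared groups in the fit, the replicate number as a block, and leaving out each library. Replicates differed by more than sampling noise (lowest chi-square per degree of freedom 1.24), so each counted as 1 sample. Control shRNA replicate 2 stood apart from replicates 1 and 3 in each condition. Its values were 20.3 and 13.1 without stimulus, 17.4 and 12.1 under IL-4, and 16.5 and 16.7 under PGE2. Between replicates 1 and 3 they were 4.61, 2.81 and 3.36.

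Replicate numbers were checked for pairing by correlating the deviations of same-numbered libraries from their group means. All 3 correlations passed 0.1 for IL-4 against no stimulus (0.187, 0.309 and 0.325 with the Etv1 shRNA; 0.333, 0.490 and 0.213 with the control shRNA) and for PGE2 against IL-4 (0.106, 0.293 and 0.198; 0.251, 0.433 and 0.146), and in no other contrast, so the numbers pair samples within a hairpin. The main fits did not use this pairing. With the replicate number as a block, 7 calls were added and 0 were lost. The pairing also rests on the cut of 0.1. For PGE2 against IL-4 in wild type cells the correlations were 0.110, 0.053 and 0.169. There 3 of 3 libraries correlated best with their own number, against 2 of 3 with the control shRNA. The members and lists were chosen with earlier results of these data known. All 10 members were tested in every comparison, but values are not printed for every member that did not pass. Of the wider lists, at most 2 genes per list and direction were named, those with the smallest adjusted p. Of 28 listed mtDNA genes 27 were matched, and genes below the filter were not tested. The genes most like a member were those with the highest of the lower of their wild type and shRNA correlations, for the 3 members of the widest wild type range.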

Additional observations from a re-analysis of the deposited data

Results flagged for a closer look

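The effect of PGE2 on Dnm1l and on Fis1 differed between wild type and control shRNA cells in a test of the difference itself (edgeR fit of all 30 libraries). The difference, wild type minus control shRNA, was 0.26 ± 0.07 for Dnm1l (SE, adjusted p = 0.00808) and -0.23 ± 0.08 for Fis1 (SE, adjusted p = 0.043) on the log2 scale. The call for Dnm1l was lost without control shRNA IL-4 or PGE2 replicate 1 or wild type IL-4 replicate 2, with adjusted p up to 0.0794, and without the filter on low counts (adjusted p = 0.316). The call for Fis1 was lost without control shRNA PGE2 replicate 3, wild type IL-4 replicate 2 or 3 or wild type PGE2 replicate 1 or 2, with adjusted p up to 0.097. Wild type and control shRNA cells also differed in experiment and in transduction, and the part of either was not tested.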

How the results depend on the processing

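Of 48 calls of members over 15 comparisons, 33 held under every alternative and without any 1 library, and 15 were lost in at least 1 of these fits. No called value changed sign. Without the filter on low counts, edgeR called 1 member for the difference of the IL-4 effects between wild type and control shRNA cells and 1 for that of the PGE2 effects, where Dnm1l was lost (0.19). With only the compared groups in the fit, the count for the PGE2 effects was also 1, with Fis1 lost (-0.24). The replicate block gave 1 called member (Sqstm1) for the difference of the IL-4 effects, both between hairpins (0.31) and between wild type and control shRNA cells (0.34, adjusted p = 0.0105). The block also added Mfn1 for the difference of the PGE2 effects between wild type and control shRNA cells (0.24). There the 3 pairing correlations all passed 0.1 in control shRNA but not in wild type cells. Where they did not all pass 0.1, the block added Mfn1 for PGE2 in wild type cells (0.16), and Opa1 (-0.13) and Polrmt (-0.16) for the hairpins under PGE2. It changed no other call besides Sqstm1 under PGE2 with the Etv1 shRNA. DESeq2 size factors also added Opa1 (-0.14) and Polrmt (-0.17) for the hairpins under PGE2. Without the filter on low counts the calls of Mff for IL-4 in wild type cells, Mfn2 for PGE2 with the control shRNA, and Mfn2, Polrmt (no stimulus) and Dnm1l (IL-4) between hairpins were lost too. With only the compared groups in the fit, those of Mff, Mfn1 (valinomycin), Tfam (PGE2 against valinomycin) and Mfn2 (PGE2, control shRNA) were lost. The same setting added Sqstm1 for PGE2 with the Etv1 shRNA (-0.20). The cause of these changes was not tested. Leaving out 1 library at a time, the number of members called ranged from 2 to 4 for PGE2 and for IL-4 in wild type cells, 2 to 3 for valinomycin, 5 to 6 for PGE2 against valinomycin, 2 to 5 and 4 to 6 for PGE2 with the Etv1 and the control shRNA, 2 to 3 and 3 to 4 for IL-4 with each, and 4 to 6, 4 to 5 and 4 to 6 between hairpins under PGE2, IL-4 and no stimulus. For the differences between hairpins it ranged from 0 to 2 for IL-4 and was 0 for PGE2, and for those between wild type and control shRNA cells from 0 to 1 for IL-4 and 1 to 2 for PGE2. Depth limits the members with the fewest reads, down to 165 in a library.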
